A study of Homo sapiens with 6 samples.

Results

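NF-kB is a family of transcription factors, and the genes described here are 4 of its subunits (Nfkb1, Nfkb2, Rela and Relb) with 4 genes that NF-kB is known to switch on (Nfkbia, Tnfaip3, Birc3 and Icam1). The 8 genes were taken by gene ID from a list chosen with earlier results of these data known, out of 54532 IDs in the files. In the order Nfkb1, Nfkb2, Rela, Relb, Nfkbia, Tnfaip3, Birc3 and Icam1, the IDs are ENSMUSG00000028163, ENSMUSG00000025225, ENSMUSG00000024927, ENSMUSG00000002983, ENSMUSG00000021025, ENSMUSG00000019850, ENSMUSG00000032000 and ENSMUSG00000037405. The names are those under which Ensembl lists these mouse IDs, as given with the list, since the files hold IDs alone.

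RNA was sequenced from 6 libraries, 2 in each of the groups labelled NC, sh1 and sh4. The labels give the cells of every group as A549, an established human lung adenocarcinoma line, and the title sets a knockdown of a gene written DSTY against NC. They spell out none of the group names and name no vector, clone, time or separate culture. Here sh1 and sh4 are read as knockdown groups and NC as their control, so p-values measure the spread between these libraries, which may be technical. All 54532 IDs carry the mouse prefix of Ensembl although the labels state human cells, and no value used here resolves this. Names, positions and sequences of a mouse annotation were not used here, so the level of the targeted gene, lung epithelial markers and markers of other cell types were not analysed here.

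In resting cells, inhibitor proteins of the IkB family hold NF-kB dimers in the cytoplasm. Signals from TNF, interleukin and Toll-like receptors lead to loss of the inhibitor and entry of the dimers into the nucleus, where they raise genes for adhesion molecules, chemokines and survival factors. Among the genes raised are the pathway's own brakes and several of its own subunits, so that the response feeds back on itself. In lung epithelium the pathway is known for the inflammatory response to microbes and cytokines.

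The deposited values are FPKM, the fragments per kilobase of gene length, and thus can be compared between genes as far as the lengths used are right. Those lengths, recovered from the values, ran from 1610 bases for Nfkbia to 12061 for Nfkb1, with 2716 for Rela. Orders, shares and ratios between genes depend on them. Their scaling between libraries followed median-of-ratios size factors rather than read totals. Whole reads were recovered from them, and the libraries held between 14999783 and 18011796 reads. Fold changes are differences of log2(FPKM + 1) tested with limma across 12755 IDs, those for which 2 or more libraries reached 1 FPKM, with a Benjamini-Hochberg adjusted p below 0.05 as the threshold. A difference in bulk RNA does not tell fewer cells of a type from less RNA per cell.

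In sh1, the subunit genes Rela and Nfkb2 and the feedback inhibitor Tnfaip3 were lower than in NC, while Nfkb1 and the survival gene Birc3 were higher. Icam1, an adhesion molecule, was also lower, by a small margin. In all, 2 of the 8 genes rose and 4 fell, against a background in which 65.5% of all IDs tested were called in this comparison (32.3% higher and 33.2% lower). In sh4, 7 of the 8 genes rose and 0 fell. On the log2(FPKM + 1) scale Icam1 changed most of the 8 genes, while in plain FPKM Birc3 did, at 3.78 times its NC level against 2.94 times for Icam1. Tnfaip3 alone was not called. The background of sh4 against NC was 68.3% of IDs called, 35.0% of them higher and 33.3% lower as shares of all IDs tested. Both comparisons use the same 2 NC libraries.

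The direct comparison of sh4 with sh1 put 6 of the 8 genes higher in sh4, Birc3 lower, and Nfkb1 not called. Here 55.9% of all IDs were called, 29.5% higher and 26.4% lower. Higher IDs made up 52.8% of those calls with the deposited scaling, 62.2% when libraries were scaled to their read totals and 66.9% when they were scaled to the same FPKM sum. The 7 genes called here kept direction and call under both of these scalings. Both scalings shifted sh4 up against sh1, with the median log2 of all IDs going from 0.0053 to 0.071 and 0.10. That shift goes with the direction of the 6 genes higher in sh4. Only Birc3 was thus put at risk, at -0.62 and -0.60.

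**Figure D1:**
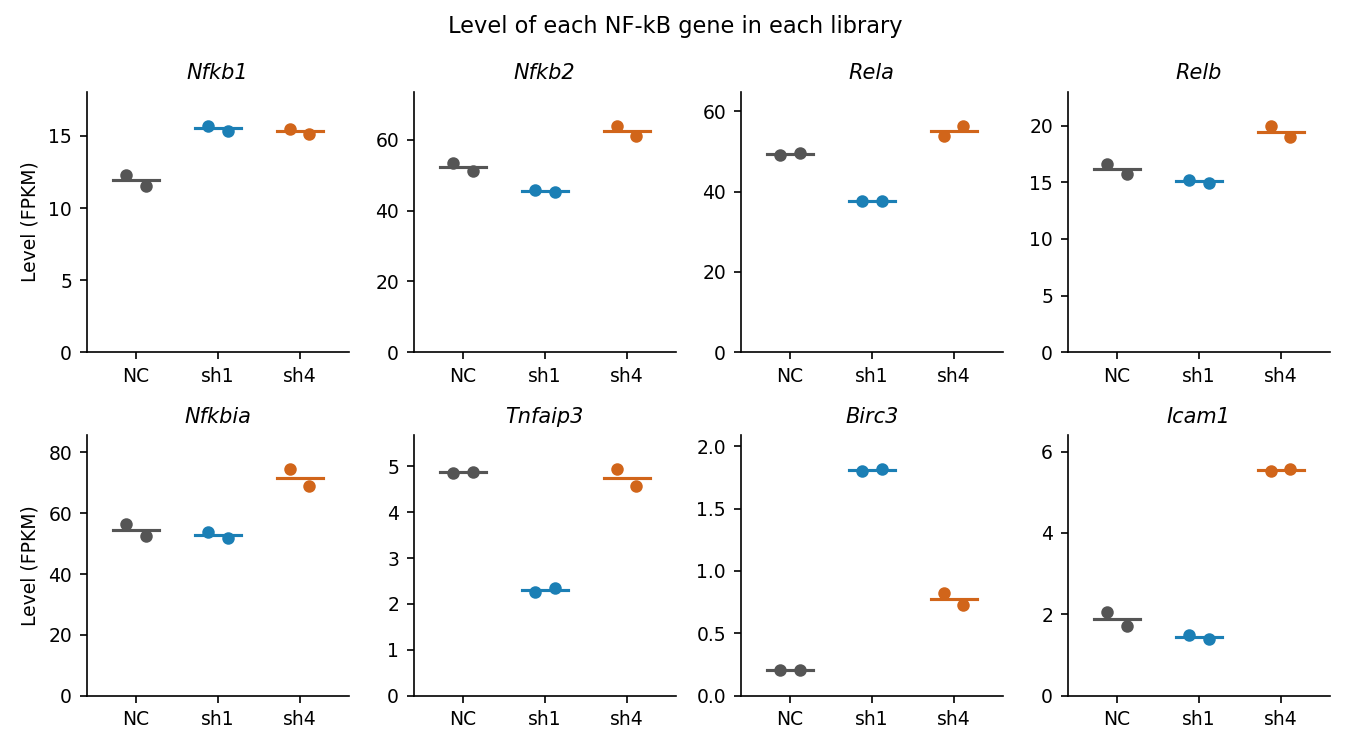
Level in FPKM (vertical axes, each starting at 0) of the 8 genes in each library. Points are the 2 libraries of a group and lines their means. Icam1 is near 5.5 FPKM in sh4 and at or below 2.05 elsewhere, Tnfaip3 is low in sh1 alone, and Birc3 is lowest in NC.

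The 8 genes covered a wide range of levels. In NC the order of mean levels per length was Nfkbia (54.4 FPKM), Nfkb2 (52.3), Rela (49.4), Relb (16.2), Nfkb1 (11.9), Tnfaip3 (4.86), Icam1 (1.88) and Birc3 (0.205). The libraries of Nfkbia and Nfkb2 overlapped in NC, and all other neighbours in that order were apart. In sh1 the order changed in its lower part, with Nfkb1 (15.5 FPKM) just above Relb (15.1) and Birc3 (1.81) above Icam1 (1.44). In sh4, Icam1 (5.54 FPKM) stood above Tnfaip3 (4.75). No neighbouring pair overlapped in sh1 or in sh4. Among the IDs tested, Nfkbia lay between the 92.8 and the 95.2 percentile of level in every library. Icam1 moved from the 20.9 and 17.1 percentile in NC to the 43.2 and 43.4 percentile in sh4.

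Rela encodes the main activating subunit of the canonical pathway, which joins the product of Nfkb1 in the classical dimer. Its level was 49.2 and 49.6 FPKM in the NC libraries, 37.6 and 37.7 in sh1, and 53.7 and 56.4 in sh4. The 3 groups did not overlap, with sh1 lowest and sh4 highest. Against NC, Rela fell in sh1 by 0.38 on the log2 scale (SE 0.05, adjusted p = 1.35e-05), and its mean FPKM dropped by 23.8%. In sh4 it rose by 0.15 (SE 0.05, adjusted p = 0.0121). That call was lost without NC replicate 1 (0.15, adjusted p = 0.054) and without sh4 replicate 2 (0.12, adjusted p = 0.062). Between sh4 and sh1 the difference was 0.54 (SE 0.05, adjusted p = 1.07e-06).

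Nfkb1 encodes a precursor that is cut to a subunit without an activation domain of its own. It measured 12.3 and 11.5 FPKM in NC, 15.7 and 15.4 in sh1, and 15.5 and 15.1 in sh4. Both sh1 and sh4 lay above NC, and they overlapped each other. The log2 fold change was 0.36 in sh1 (SE 0.05, adjusted p = 2.51e-05) and 0.34 in sh4 (SE 0.05, adjusted p = 4.00e-05). Of the 8 genes it alone was not called between sh4 and sh1, with a difference of -0.02 and a 95% interval from -0.12 to 0.08. That interval leaves room for a small difference in either direction.

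The other precursor gene, Nfkb2, belongs to the non-canonical branch and is itself a known NF-kB target. Its libraries held 53.4 and 51.2 FPKM in NC, 45.7 and 45.3 in sh1, and 64.0 and 61.2 in sh4. As for Rela, the groups did not overlap, with sh1 lowest and sh4 highest. Nfkb2 fell in sh1 by 0.20 on the log2 scale (SE 0.05, adjusted p = 0.00248) and rose in sh4 by 0.26 (SE 0.05, adjusted p = 0.000337). The difference between sh4 and sh1 was 0.45 (SE 0.05, adjusted p = 4.20e-06).

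Relb encodes the partner of the mature Nfkb2 product. Its level was 16.6 and 15.7 FPKM in NC, 15.2 and 15.0 in sh1, and 20.0 and 19.0 in sh4. The sh4 libraries were the highest, and those of sh1 lay just under those of NC. Relb rose in sh4 by 0.25 (SE 0.06, adjusted p = 0.00184). For sh1 the log2 difference from NC was -0.09 (95% interval -0.22 to 0.03, adjusted p = 0.174), not past the threshold. With total-read scaling it was -0.15 (adjusted p = 0.033) and with the same FPKM sum -0.17 (adjusted p = 0.038), both past it. Without NC replicate 1 it was -0.05 (adjusted p = 0.53). Between sh4 and sh1, Relb differed by 0.35 (SE 0.06, adjusted p = 0.000251).

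Added up, the RNA of these 4 subunits came to 131.5 and 128.0 FPKM in NC, 114.2 and 113.3 in sh1, and 153.2 and 151.6 in sh4. The sum was thus lowest in sh1 and highest in sh4. Nfkb2 held a steady share of it, between 40.0% and 41.8% in every library. Rela held 37.4% and 38.7% in NC, 32.9% and 33.2% in sh1, and 35.1% and 37.2% in sh4. The share of Nfkb1 was 9.35% and 9.02% in NC, 13.7% and 13.5% in sh1, and 10.1% and 9.97% in sh4. Relative to Rela, Nfkb1 stood at 0.250 and 0.233 in NC, 0.418 and 0.408 in sh1, and 0.289 and 0.268 in sh4. These shares and ratios are descriptions without a test, and the ratio of Nfkb1 to Rela was outside the plan. In these values sh1 is the group in which the balance between Nfkb1 and Rela stood farthest from NC.

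**Figure D2:**
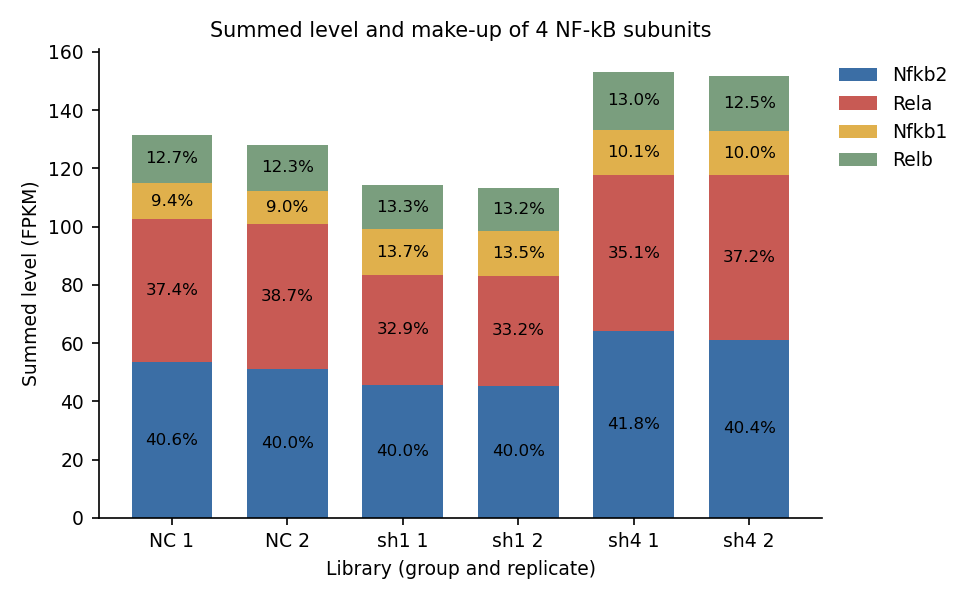
Summed level of Nfkb2, Rela, Nfkb1 and Relb in FPKM (vertical axis from 0) for each library, with the share of each gene printed in its segment. The sums are between 113.3 and 114.2 in sh1 and between 151.6 and 153.2 in sh4, and the Nfkb1 segment takes its largest share in sh1.

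Among the feedback genes, Nfkbia encodes the inhibitor that returns NF-kB dimers to the cytoplasm, and its RNA is a standard readout of recent NF-kB activity. It measured 56.3 and 52.4 FPKM in NC, 53.8 and 51.9 in sh1, and 74.4 and 69.1 in sh4. The NC and sh1 libraries overlapped, and both sh4 libraries lay above them. Nfkbia rose in sh4 by 0.39 on the log2 scale (SE 0.06, adjusted p = 6.03e-05), or 1.32 times the NC level in FPKM. The difference between sh1 and NC was -0.04, with a 95% interval from -0.17 to 0.09 (adjusted p = 0.565). Between sh4 and sh1 it was 0.43 (SE 0.06, adjusted p = 4.05e-05).

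Tnfaip3 encodes a ubiquitin-editing enzyme that shuts off signalling from TNF and Toll-like receptors. Its libraries held 4.85 and 4.88 FPKM in NC, 2.27 and 2.36 in sh1, and 4.93 and 4.56 in sh4. These values rest on 553 and 541 recovered reads in NC, 274 and 300 in sh1, and 658 and 605 in sh4. The sh1 libraries were the lowest, and NC lay within the range of sh4. Tnfaip3 fell in sh1 by 0.82 on the log2 scale (SE 0.07, adjusted p = 5.88e-07), and the mean FPKM in NC was 2.10 times that in sh1. In sh4 the difference from NC was -0.03 (95% interval -0.19 to 0.13, adjusted p = 0.728). The direct comparison of sh4 with sh1 gave 0.79 (SE 0.07, adjusted p = 1.37e-06).

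The inhibitors Nfkbia and Tnfaip3 departed from NC in different groups. Per unit of Nfkbia, the level of Tnfaip3 was 0.0860 and 0.0932 in NC, 0.0422 and 0.0454 in sh1, and 0.0662 and 0.0660 in sh4. Every NC library was above every sh4 library on this ratio, and every sh4 library above those of sh1. In sh1 Tnfaip3 was the gene of the pair called against NC, and in sh4 it was Nfkbia. Nfkbia relative to Rela was 1.14 and 1.06 in NC, 1.43 and 1.38 in sh1, and 1.38 and 1.23 in sh4. Both knockdown groups stood above NC on that ratio and overlapped each other. The log2 changes behind it differed, at -0.04 for Nfkbia and -0.38 for Rela in sh1, and 0.39 and 0.15 in sh4. Both ratios in this paragraph were outside the plan and were not tested.

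Icam1 encodes an adhesion molecule that binds leukocyte integrins and is raised by NF-kB in epithelium and endothelium. Its level was 2.05 and 1.72 FPKM in NC, 1.48 and 1.39 in sh1, and 5.51 and 5.56 in sh4. Recovered reads were 141 and 115 in NC, 108 and 107 in sh1, and 444 and 445 in sh4. The sh4 libraries stood well above all others, and those of sh1 lay under those of NC. Icam1 rose in sh4 by 1.18 on the log2 scale (SE 0.09, adjusted p = 2.50e-07), a change that 6.73% of all IDs matched or exceeded in size. Compared with sh1, the level in sh4 was higher by 1.42 (SE 0.09, adjusted p = 7.86e-08), or 3.85 times in FPKM, and 2.63% of IDs differed as much.

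The fall of Icam1 in sh1 was less firm. It came to 0.24 on the log2 scale (SE 0.09, adjusted p = 0.0393). The call was lost with no filter on low values (adjusted p = 0.069), with only the NC and sh1 libraries in the fit (adjusted p = 0.072) and by voom on recovered reads (-0.39, adjusted p = 0.058). Leaving out NC replicate 1 gave -0.16 (adjusted p = 0.24), and leaving out sh1 replicate 1 or 2 gave -0.27 (adjusted p = 0.078) or -0.21 (adjusted p = 0.15). It was also lost without either sh4 library, at -0.24 with adjusted p = 0.059 for each. Without NC replicate 2 the call was kept.

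Birc3 encodes a ubiquitin ligase that guards against cell death downstream of TNF receptors and restrains the non-canonical branch. It was the least abundant of the 8 genes in NC, at 0.202 and 0.208 FPKM, with 16 reads in each library. In sh1 its libraries held 1.80 and 1.81 FPKM (151 and 160 reads), and in sh4 0.822 and 0.729 FPKM (76 and 67 reads). The 3 groups did not overlap, with NC lowest, sh4 between and sh1 highest. The 95% Poisson intervals, which cover counting error only, reached at most 0.338 FPKM in NC, began at 0.565 in sh4 and began at 1.53 in sh1.

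On the log2(FPKM + 1) scale Birc3 rose by 1.22 in sh1 (SE 0.13, adjusted p = 2.78e-06) and by 0.56 in sh4 (SE 0.13, adjusted p = 0.00181). The scale understates a gene this low. In plain FPKM the sh1 mean was 8.81 times and the sh4 mean 3.78 times that of NC. With a pseudocount of 0.1 the log2 values were 2.64 and 1.52, and by voom on recovered reads 3.10 and 1.88. Birc3 was lower in sh4 than in sh1 by 0.66 (SE 0.13, adjusted p = 0.000732), and by 1.22 with voom. Only its 2 sh1 libraries reached 1 FPKM, so the gene passed the filter through the group in which it is highest. With no filter its adjusted p was 0.00032 in sh1 and 0.0026 in sh4.

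**Figure D3:**
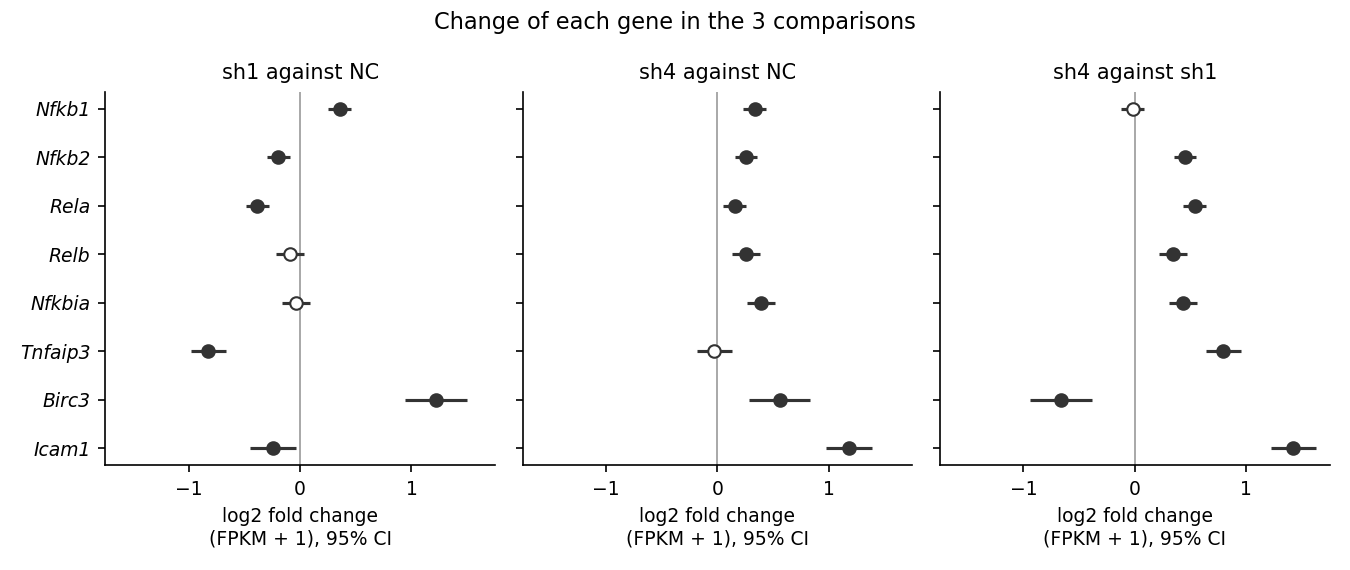
Log2 fold change of each gene on the log2(FPKM + 1) scale (horizontal axes) in the 3 comparisons, with bars for the 95% confidence interval from limma and filled points for an adjusted p below 0.05 and open points for one at or above it. Against NC, Tnfaip3 is lowest in sh1 and Icam1 highest in sh4, and between sh4 and sh1 Nfkb1 is the gene whose interval covers 0.

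The 7 genes with a mean of 1 FPKM or more over the 6 libraries, which leaves out Birc3, were also counted alone. In sh1, 1 of them rose and 4 fell, and in sh4 6 rose and 0 fell. Among the 11992 tested IDs that met the same condition, 67.2% were called in sh1 and 69.9% in sh4. Between sh4 and sh1, 6 of the 7 genes were higher in sh4 and 0 lower, where 57.4% of such IDs were called in either direction. The median log2 difference between sh4 and sh1 was 0.45 for the 7 genes and 0.0087 for the 11992 IDs. Against NC, the median of the 7 genes was -0.20 in sh1 and 0.26 in sh4, beside -0.0088 and 0.0060 for those IDs. As the genes were chosen with earlier results of these data known, these medians are a description and not a test.

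Most of these changes were of ordinary size for the data. Over all 8 genes the median absolute log2 change was 0.30 in sh1 and 0.30 in sh4, and over all IDs tested it was 0.36 and 0.37. Between sh4 and sh1 the corresponding values were 0.49 for the 8 genes and 0.27 for all IDs, so there the 8 genes typically differed by more. Changes as large as that of Rela in sh1 were found for 47.1% of IDs, and as large as that of Nfkbia in sh4 for 47.8%. For Tnfaip3 in sh1 the share was 16.2%, and for Birc3 in sh1 6.23%.

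**Figure D4:**
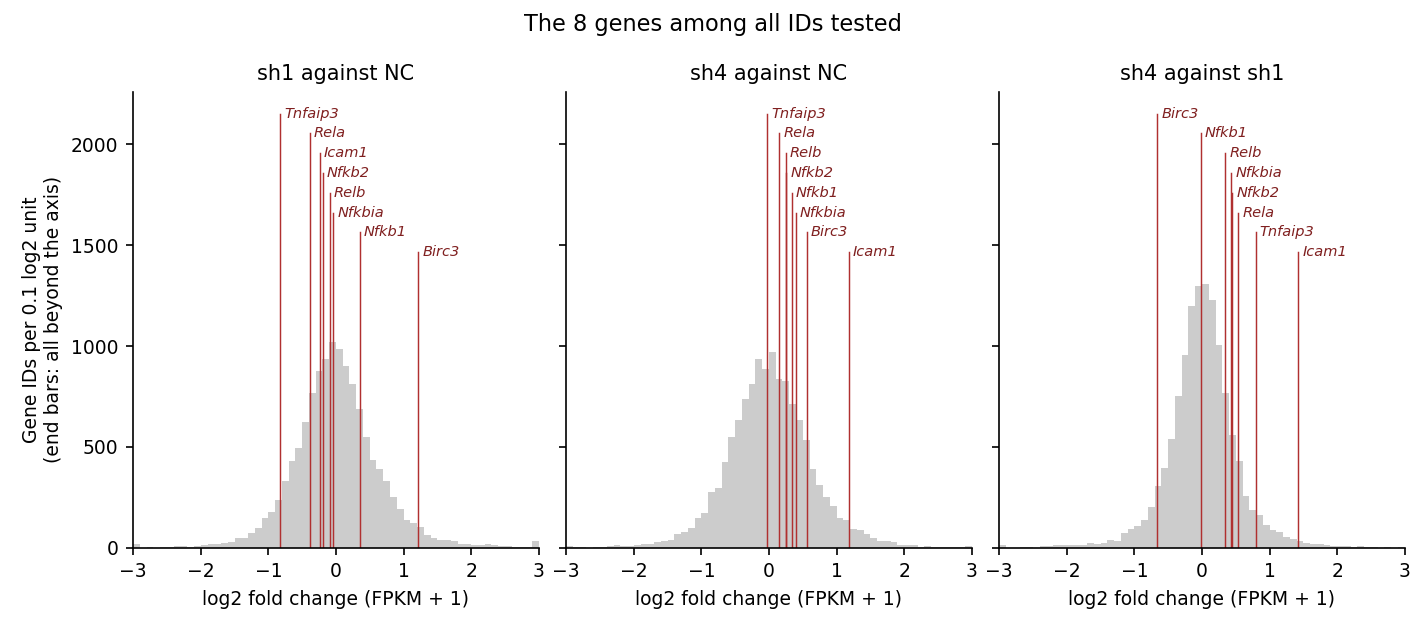
Number of IDs (vertical axis) by log2 fold change on the log2(FPKM + 1) scale (horizontal axis, bins of 0.1) in the 3 comparisons over all 12755 IDs tested, with a red line at the value of each of the 8 genes. The end bars hold the IDs beyond the axis. In sh4 against sh1, 6 of the 8 lines lie to the right of 0.3, and Icam1 is at 1.42.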

How the data were processed

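RNA-seq values of 6 libraries (NC, sh1 and sh4, 2 each) were used. The deposited FPKM values were computed by the authors, 1 file per library. HISAT2 2.0.5 and the build hg18 are named per the submitters' processing notes. Which counter, annotation and filters were used is not given in the sources used here. Of 54532 IDs, 0 matched the human name tables, so other pathway genes and the genes of most similar pattern could not be named.

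Reads and lengths were recovered from the whole-number steps of the FPKM values (25743 of the 25747 IDs above 0 were rebuilt, within 1e-06 FPKM plus 1e-07 of the value). The libraries' scaling followed size factors of the median-of-ratios kind, so the values already hold the typical gene constant. On simulated data 99.1% of 14097 IDs with 60 or more reads were recovered exactly. The simulation was built from the lengths and reads recovered from the real values, so it cannot show that these are right.

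limma 3.58.1 (R 4.3.3) was fitted to log2(FPKM + 1) over all 6 libraries with 3 residual degrees of freedom, robust empirical Bayes and a variance trend on mean recovered reads. On simulated data for sh1 against NC (12200 IDs tested), the test called 92.6% of the IDs given a change of 1 log2 unit and 57.9% of those given 0.5, and unchanged IDs made up 4.67% of calls. Only 95 tested IDs were given each size of change, and 150 IDs were called. The spread between simulated replicates was set beforehand and not estimated from the data. In the real data 65.5% of IDs were called in sh1, so these shares do not carry over to them. The named genes are the 8 listed. The members, lists and tests were chosen with earlier results of these data known. Alternatives were another scaling, pseudocount, filter, variance trend, voom, a replicate block, fits of 2 groups, and leaving out each library.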

Additional observations from a re-analysis of the deposited data

Results flagged for a closer look

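For 7 of the 8 genes, limma's direct test found that sh4 and sh1 departed from NC by different amounts, in a comparison where 55.9% of all IDs were called. As log2 values of sh4 minus sh1, the difference was 1.42 for Icam1, 0.79 for Tnfaip3, 0.54 for Rela, 0.45 for Nfkb2, 0.43 for Nfkbia and 0.35 for Relb. For Birc3, which passed the filter on low values through its sh1 libraries alone, it was -0.66. With no filter limma gave Birc3 the same difference, at an adjusted p of 0.0025. In each of these genes both sh4 libraries lay on the same side of both sh1 libraries. That adds no support, as the genes were picked by their calls, and the share of all IDs that do so was not counted.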

How the results depend on the processing

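The other filters, the replicate block, the fits of 2 groups and the other variance trend leave every log2 value as it was. So does leaving out a library of the group not compared, and in all of these only the call could change. Across the 24 gene values (8 genes in 3 comparisons), 345 tests were run under 15 alternatives, and 328 of them kept direction and call. The call was lost in 10, 8 of them for Icam1 in sh1 and 2 for Rela in sh4, with values given above, and gained in 2, both for Relb in sh1 with another scaling. The sign turned in 5 tests, none past the threshold before or after. These were Nfkb1 between sh4 and sh1 (0.057 with total-read scaling, 0.0963 with the same FPKM sum), Nfkbia in sh1 without NC replicate 1 (0.0116, the top of a range from -0.0918 over the fits without 1 library), and Tnfaip3 in sh4 with the same FPKM sum (0.00594) and without sh4 replicate 2 (0.0161, the top of a range from -0.0764); the cause was not tested. With a mean of at least 5 FPKM, 5 of the 8 genes were tested, and 3 were called in sh1 and 4 between sh4 and sh1, fewer because fewer genes were tested. Of the 7691 IDs tested with that filter, 5693 were called in sh1 and 4976 between sh4 and sh1. Without either sh1 library Birc3 missed the filter and was not tested. Leaving out 1 library at a time kept the direction of every value tested, apart from Nfkbia in sh1 and Tnfaip3 in sh4 as given above. A group left with 1 library was taken to have the same spread as the rest. With the replicate block (the number in the titles as a term) 6, 7 and 7 genes were called and no call of the 8 genes changed. Of all 12755 IDs, that fit called 8506 in sh1, 8851 in sh4 and 7329 between sh4 and sh1. The correlation of deviations between libraries of the same number was -0.01 (NC, sh1), 0.12 (NC, sh4) and -0.02 (sh1, sh4), so the numbers were not taken to pair libraries. Replicates differed by more than counting noise. The largest shift of the median of all IDs was to 0.10 between sh4 and sh1, with the same FPKM sum. Depth limits Birc3 in NC, at 16 reads per library.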

Other observations

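The targets Birc3 and Icam1 changed rank between the groups. The level of Birc3 relative to Icam1, in FPKM, was 0.0988 and 0.121 in the NC libraries, 1.22 and 1.30 in sh1, and 0.149 and 0.131 in sh4. The ratio was chosen after the values were seen and was not tested. All sh1 libraries held more Birc3 than Icam1 RNA per length, and all NC and sh4 libraries held less.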
